A study of Mus musculus with 6 samples.

Results

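The *Hox* genes of mouse embryonic fibroblasts (MEFs) are described here, chosen as each row of the deposited count table whose symbol is *Hox*, a cluster letter from a to d and a number, with antisense partners allowed. The rule found 38 of 17092 genes, all of them protein coding and no antisense partner: 11 in cluster A and 9 in each of clusters B, C and D. The mouse RefSeq gene table holds 39 such genes. The remaining one, *Hoxb1*, was not analysed here. Of the 38 genes, 35 had enough reads to be tested among 13075 genes in all.

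RNA of MEFs, connective tissue cells grown out of embryos, was sequenced from WT mice and from *Aff3ir-ORF2-/-* mice, with 3 libraries of each. The question behind the series was how gene expression changes without *Aff3ir-ORF2*, a gene nested within *Aff3*, and the *Hox* genes were not its stated aim. The knockout line was made by injecting Cas9 mRNA and guide RNAs into fertilized eggs. Founders were then bred to WT mice and their heterozygous descendants intercrossed, so homozygous embryos carried the knockout allele in all cells. Both groups were passaged in serum-containing medium with no other treatment. Neither the labels nor the methods give the embryonic stage, the parts of the embryo taken, the number or sex of embryos behind a library, or whether the 3 libraries of a genotype came from separate embryos or cultures, so p-values measure the spread between these libraries only. The targeted gene itself was not analysed here, and so the genotype labels were not checked by it.

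*Hox* genes encode homeodomain transcription factors that tell cells where along the head-to-tail axis, and along the limbs, they lie. They stand in clusters in which the order of the genes follows the order of their domains: low-numbered genes are switched on first and furthest toward the head, high-numbered genes later and further toward the tail or the limb tip. Genes with the same number in different clusters are paralogues, copies of one ancestral gene. Fibroblasts are known to keep much of the *Hox* code of their site of origin in culture, and Polycomb and Trithorax/MLL complexes keep *Hox* genes off or on.

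The libraries held 17435133 to 17726034 counts in WT and 18209421 to 18252330 in *Aff3ir-ORF2-/-* MEFs, and *Hox* genes took 0.0213% to 0.022% and 0.0303% to 0.034% of them. The WT libraries were nearly alike, with a biological coefficient of variation of 0.0184, against 0.1 in the knockout. All 14 fibroblast markers were detected in every library. Of them, 2 were called higher and 0 lower, close to the 14.2% higher and below the 7.27% lower of all tested genes. The summed level of these markers was 22900 to 23000 CPM in WT and lower, at 16700 to 21700 CPM, in the knockout. That sum is carried by its highest genes, such as *Col1a1* (mean 7370 CPM in WT, 5250 in the knockout), *Col1a2* (5270, 3960) and *Vim* (4430, 3370). The median log2 fold change of the fibroblast markers was 0.02. The markers of macrophages also moved with genotype. All 19 tested of 20 rose, with a summed level of 25.1 to 28.3 CPM (counts scaled to the size of the library) in WT and 1450 to 2480 CPM in the knockout. *Lyz2*, lysozyme of myeloid cells, had 162, 199 and 182 counts in WT and 14471, 20237 and 25195 in the knockout, while *C1qa*, *C1qb* and *Aif1* were at 0 in all WT libraries. *Aif1*, the marker not tested, had only 1, 3 and 5 counts in the knockout, against 234, 567 and 479 of *C1qa*. Of the other marker lists, 3 of 6 tested endothelial genes rose and 1 fell, and 2 of 3 skeletal muscle genes rose. Of the neural genes 1 of 6 rose and 3 fell, and 0 of 2 epithelial genes passed. These counts come from short lists and stand beside the same 14.2% and 7.27% of all tested genes. In them too, a gene low in WT was tested only where it was high in the knockout. The part of these cell types in the *Hox* values was not tested. In bulk RNA, a different share of cells and a different amount of RNA per cell cannot be told apart.

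The *Hox* genes numbered 1 to 8 rose in *Aff3ir-ORF2-/-* MEFs and those numbered 9 to 13 did not. A gene was called where edgeR's quasi-likelihood test gave an adjusted p under 0.05 (Benjamini-Hochberg over all tested genes) with a change of at least 1.5-fold. Of 35 tested *Hox* genes, 18 were called higher and 0 lower, beside 14.2% and 7.27% of all tested genes. All 18 lay among the 21 tested genes numbered 1 to 8. None of the 14 tested genes numbered 9 to 13 was called by edgeR's test or by DESeq2's Wald test. With an unadjusted p under 0.05 and the same fold, 1 of them was higher (*Hoxc13*) and 0 lower. The median log2 fold change was 0.98 over the tested genes 1 to 8 and 0.10 over the tested genes 9 to 13, against 0.01 over all tested genes. The adjusted p alone, with no limit on the fold, was passed by 19 of the 21 genes upward and by 0 downward, and among the 14 genes numbered 9 to 13 by 1 upward and 3 downward. Of all tested genes, 29.3% passed upward and 27.5% downward by that measure, so the counts of the higher-numbered genes were not above the background.

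**Figure D1:**
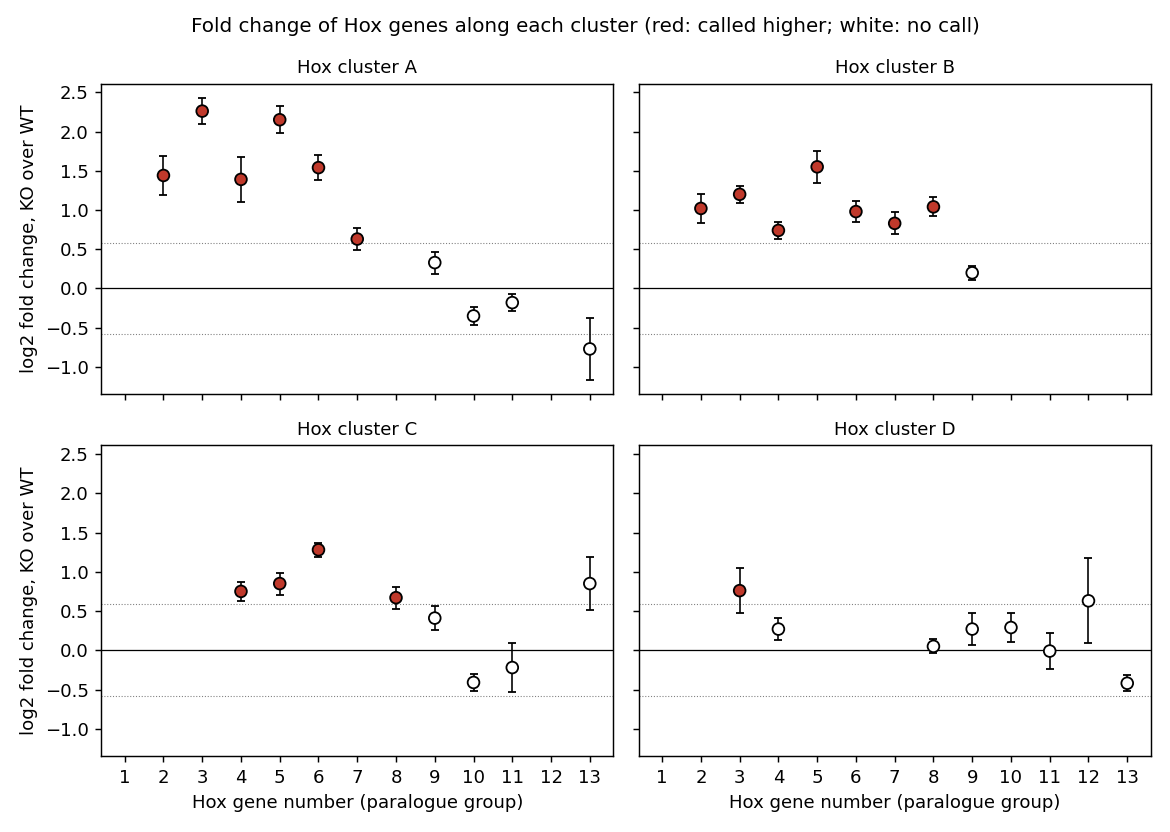
Log2 fold change of the tested *Hox* genes reported here (y axis, *Aff3ir-ORF2-/-* over WT, bars: standard error of the fit) by its number in the cluster (x axis), in 4 panels for clusters A to D. Red points were called higher, white points were not called, and the dotted lines mark a change of 1.5-fold. Red points lie between 2 and 8, and from 9 on the points lie between -0.77 and 0.85 with no call.

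The groups did not overlap, with every knockout library above every WT library, for 20 of the 21 tested genes 1 to 8. Among the 14 tested genes 9 to 13, 3 were above, 4 below and 7 overlapped. Of all tested genes 33.3% lay wholly above and 32.7% wholly below. Across the 35 genes, Pearson's r between number and log2 fold change was -0.667 and Spearman's rho -0.675, and r was -0.754 in cluster A, -0.513 in B, -0.48 in C and -0.536 in D. These values are descriptions with no test, since neighbouring genes share a cluster, a library and in places possibly reads.

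Summed over the 22 genes numbered 1 to 8, *Hox* RNA was 108, 109 and 102 CPM in WT and 217, 216 and 198 CPM in the knockout (106 ± 3.91 against 210 ± 10.5, SD, n = 3), a log2 ratio of 0.98. The 16 genes numbered 9 to 13 summed to 111, 113 and 114 CPM in WT and to 120, 118 and 103 CPM in the knockout (112 ± 1.14 against 114 ± 9.62, SD, n = 3), a log2 ratio of 0.01. The lower-numbered sum thus stood apart between the genotypes, while the higher-numbered sum overlapped. Their share within a library does not depend on how libraries were scaled. Genes 9 to 13 gave 50.8%, 50.7% and 52.7% of *Hox* counts in WT and 35.6%, 35.4% and 34.1% in the knockout.

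**Figure D2:**
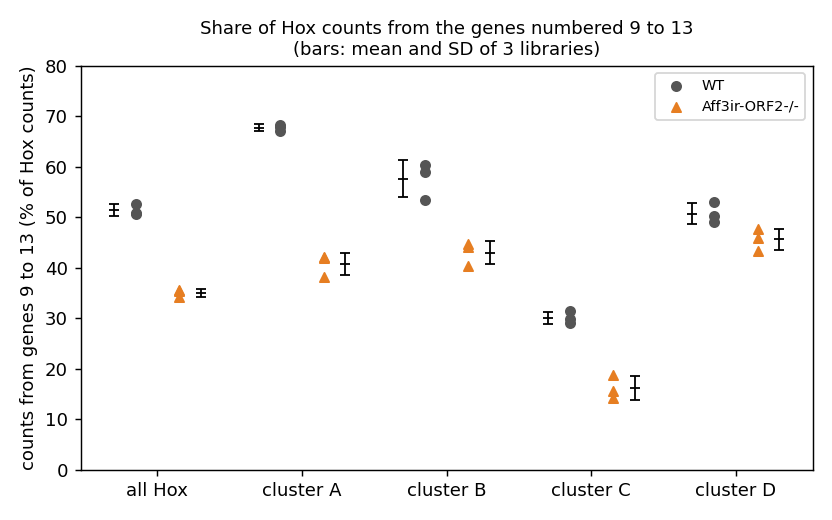
Share of *Hox* counts from genes numbered 9 to 13 (y axis, percent) in each library, over all *Hox* genes and within each cluster (x axis). Grey circles are WT, orange triangles *Aff3ir-ORF2-/-*, and bars the mean and SD of 3 libraries. The genotypes are furthest apart in cluster A (67.7% against 40.7%) and closest in cluster D (50.7% against 45.6%), and in no cluster do they overlap.

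Because lower-numbered genes moved together, their promoters are shown beside those of genes that did not move with them. RefSeq promoters (GRCm38.p6) were matched for 21 *Hox* genes, and the 250 bases before the start were searched on both strands for a Cdx site (TTTATG), a Pbx-Hox site (TGATTNAT), a Meis site (TGACAG) and a retinoid receptor half-site (AGGTCA). Capitals mark these letters. For *Hoxa3*, *Hoxa7*, *Hoxd10* and *Hoxd13*, bases just after the listed start were not found in the gene's GENCODE M21 transcripts. Their starts are therefore less certain. *Hoxa5* (chr6:52204588-52204837, minus strand) and *Hoxa2* (chr6:52164832-52165081, minus strand) were called higher in cluster A, *Hoxb8* (chr11:96281655-96281904, plus strand) in cluster B, its paralogue *Hoxd8* (chr2:74704365-74704614, plus strand) was not called, and *Hoxd13* (chr2:74667975-74668224, plus strand) had lower counts in the knockout.
Hoxa5: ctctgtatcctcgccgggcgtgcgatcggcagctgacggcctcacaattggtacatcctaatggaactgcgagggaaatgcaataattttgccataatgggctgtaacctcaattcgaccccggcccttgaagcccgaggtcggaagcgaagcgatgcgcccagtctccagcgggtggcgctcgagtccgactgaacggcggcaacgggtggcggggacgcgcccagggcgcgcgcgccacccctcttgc
Hoxa2: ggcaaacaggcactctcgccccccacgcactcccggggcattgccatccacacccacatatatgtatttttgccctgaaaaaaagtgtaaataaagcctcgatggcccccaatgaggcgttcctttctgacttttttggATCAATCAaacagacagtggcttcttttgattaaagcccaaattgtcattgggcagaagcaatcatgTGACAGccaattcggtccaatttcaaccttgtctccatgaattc
Hoxb8: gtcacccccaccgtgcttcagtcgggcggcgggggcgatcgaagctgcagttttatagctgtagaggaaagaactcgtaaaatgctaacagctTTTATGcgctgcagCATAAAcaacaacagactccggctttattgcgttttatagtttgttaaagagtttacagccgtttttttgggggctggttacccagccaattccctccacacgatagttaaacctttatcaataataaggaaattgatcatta
Hoxd8: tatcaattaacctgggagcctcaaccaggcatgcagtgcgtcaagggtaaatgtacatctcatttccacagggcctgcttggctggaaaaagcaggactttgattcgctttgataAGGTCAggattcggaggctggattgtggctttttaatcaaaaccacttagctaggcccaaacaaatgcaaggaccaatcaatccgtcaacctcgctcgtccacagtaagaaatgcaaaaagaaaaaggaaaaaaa
Hoxd13: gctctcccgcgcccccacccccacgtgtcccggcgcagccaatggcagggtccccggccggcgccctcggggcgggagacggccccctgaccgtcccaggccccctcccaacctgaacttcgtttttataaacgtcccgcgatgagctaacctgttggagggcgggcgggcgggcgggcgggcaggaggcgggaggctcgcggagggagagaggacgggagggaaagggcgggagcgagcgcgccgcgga
The *Hoxa5* and *Hoxd13* stretches held none of the 4 motifs, *Hoxa2* held a Pbx-Hox site and a Meis site, *Hoxb8* held the Cdx letters at 2 places, and *Hoxd8* held a half-site. Of the promoters of genes 1 to 8, 4 of 12 (33.3%) held a Cdx site and 5 of 12 (41.7%) a half-site. For genes 9 to 13 each was found in 1 of 11 (9.09%). These groups are split by number, not by call. Among genes 1 to 8, the half-site lay before *Hoxb4*, *Hoxc4* and *Hoxd3*, which were called higher. It also lay before *Hoxd4* and *Hoxd8*, which were not called. The Cdx site lay before the called genes *Hoxa7*, *Hoxb8* and *Hoxd3* and before *Hoxd4*. In clusters B and C, only *Hoxb4*, *Hoxb8* and *Hoxc4* had a matched promoter. Over all 32851 promoters, the Cdx letters were in 10.8%, the half-site in 14%, the Meis letters in 15.9% and the Pbx-Hox letters in 2.82%. The last 2 were each in 2 of the 23 *Hox* promoters, which belong to 21 genes. In 1 place a Cdx site and a half-site overlapped. *Hox* promoters were also richer in CpG, with a median of 13 in 250 bases against 6 over all promoters. These are matches of letters, and binding there was not measured.

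In cluster A the rise covered genes 2 to 7 and held the largest fitted changes of the 4 clusters. *Hoxa3*, needed for the thymus and parathyroid, had 31, 34 and 46 counts in WT and 164, 191 and 206 in the knockout, 4.78-fold higher (log2 2.26 ± 0.17, SE, adjusted p = 6.14e-06). *Hoxa5*, which patterns the lung and the neck-to-thorax transition, had 42, 32 and 33 counts in WT and 187, 145 and 169 in the knockout, 4.43-fold higher (log2 2.15 ± 0.17, SE, adjusted p = 8.82e-06). In both genes the lowest knockout library was over every WT library by a wide margin. *Hoxa6*, a gene of the thoracic skeleton, had 28, 33 and 32 counts in WT and 96, 104 and 86 in the knockout (log2 1.54, adjusted p = 4.44e-05). *Hoxa2*, the selector gene of the second pharyngeal arch, had 17, 11 and 14 counts in WT and 36, 39 and 46 in the knockout (log2 1.44, adjusted p = 0.000959). *Hoxa4*, a gene of the cervical vertebrae, had 10, 10 and 9 counts in WT and 33, 22 and 26 in the knockout (log2 1.39, adjusted p = 0.00272). These last were low genes in both genotypes, though no knockout library reached down to WT. *Hoxa7* had 65, 77 and 60 counts in WT and 113, 115 and 102 in the knockout, the smallest called change of the cluster (log2 0.63 ± 0.14, SE, adjusted p = 0.00397), which fell to log2 0.55 and lost its call without WT replicate 3.

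From *Hoxa9* on, cluster A showed no call. *Hoxa9*, known from limb and blood stem cell development, had 108, 95 and 95 counts in WT and 149, 134 and 113 in the knockout (log2 0.33, adjusted p = 0.0665). *Hoxa10*, a gene of the lumbar vertebrae and the uterus, had 222, 208 and 214 counts in WT and 177, 204 and 152 in the knockout, so that all knockout libraries were lower by a small amount (log2 -0.35 ± 0.11, SE, adjusted p = 0.0229). *Hoxa11*, which patterns the forearm, had 153, 177 and 168 counts in WT and 166, 144 and 154 in the knockout, and the groups overlapped (log2 -0.18, adjusted p = 0.176). *Hoxa13*, a gene of the digits and hindgut, was close to the detection limit with 15, 11 and 13 counts in WT and 4, 10 and 10 in the knockout (log2 -0.77 ± 0.40, SE, adjusted p = 0.124). Within single libraries the shift was plain in the ratio of *Hoxa5* to *Hoxa10* counts, which was 0.189, 0.154 and 0.154 in WT and 1.06, 0.711 and 1.11 in the knockout. This pair and the pairs of the later paragraphs were picked after their values were seen and are given as descriptions. The cluster sum over genes 1 to 8 had a log2 ratio of 1.47, and that over genes 9 to 13 of -0.14.

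**Figure D3:**
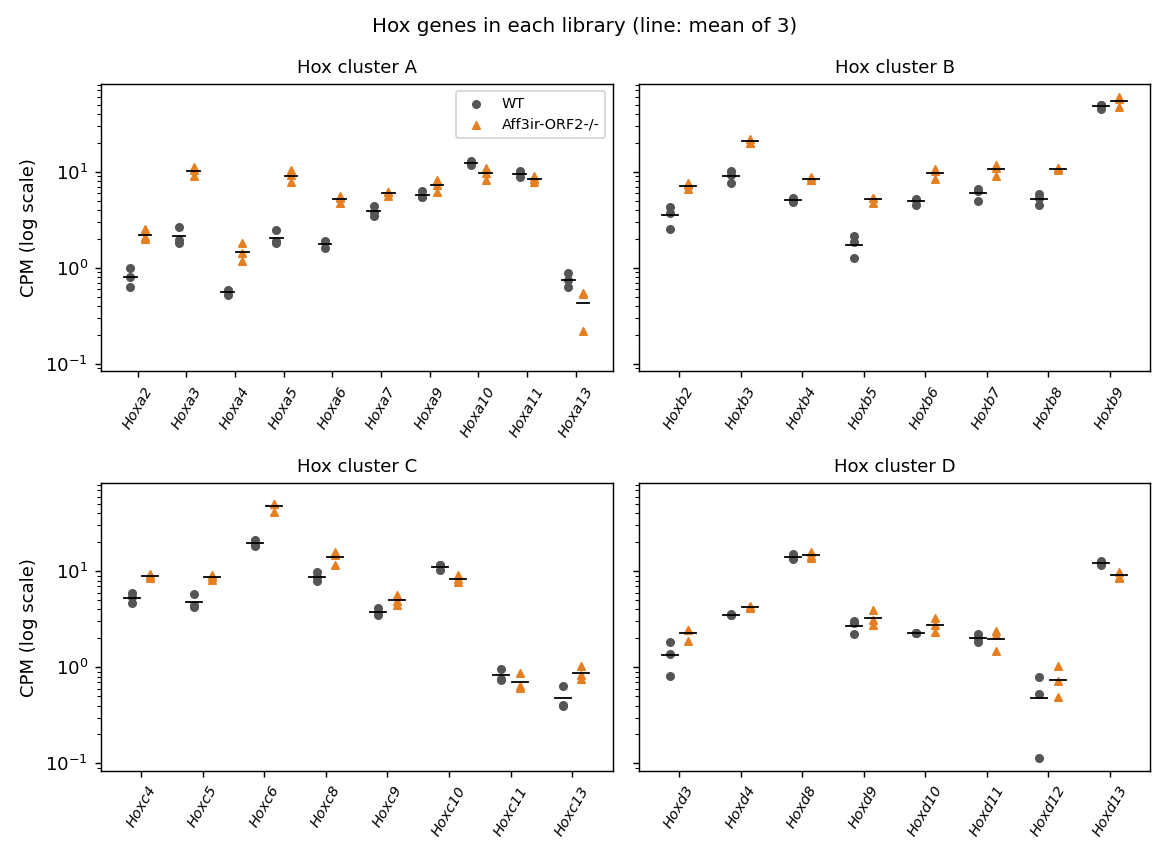
Level of the tested *Hox* genes reported here in each library (y axis, CPM on a log scale) by gene (x axis), in 4 panels for clusters A to D. Grey circles are WT, orange triangles *Aff3ir-ORF2-/-*, and lines the mean of 3. Triangles lie above circles for the low-numbered genes of clusters A, B and C, while *Hoxb9*, *Hoxd8* and *Hoxa11* overlap and *Hoxc10* and *Hoxd13* lie lower.

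Some of these genes may share reads in ways that the deposited counts cannot resolve. In RefSeq, the span of *Hoxa3* overlaps *Hoxa4*, *Hoxa5* and *Hoxa6*, and *Hoxb3* overlaps *Hoxb4*, *Hoxd3* overlaps *Hoxd4*, and *Hoxd10* overlaps *Hoxd11*, 10 genes in all. How the authors' counting split reads between them is not given in the sources used here, so each single value is uncertain. Summed as 1 locus, *Hoxa3* to *Hoxa6* had 111, 109 and 120 counts in WT and 480, 462 and 487 in the knockout (log2 1.99 ± 0.08, SE, edgeR adjusted p = 3e-07). *Hoxb3* and *Hoxb4* together rose as well (log2 1.05 ± 0.08, SE, adjusted p = 9.66e-06). The sum of *Hoxd3* and *Hoxd4* passed the adjusted p but not the fold limit (log2 0.43 ± 0.13, SE, adjusted p = 0.0193), and that of *Hoxd10* and *Hoxd11* passed neither (log2 0.16 ± 0.16, SE, adjusted p = 0.426).

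In cluster B all 7 genes numbered 1 to 8 were called higher, with log2 fold changes of 0.74 to 1.55. *Hoxb5*, which acts in vagal neural crest and the shoulder, had 32, 22 and 37 counts in WT and 98, 99 and 86 in the knockout, 2.94-fold higher (log2 1.55 ± 0.20, SE, adjusted p = 0.00014). *Hoxb3*, a gene of the hindbrain and pharyngeal arches, had 176, 134 and 161 counts in WT and 403, 373 and 368 in the knockout (log2 1.20, adjusted p = 1.67e-05). These were the largest changes of the cluster. *Hoxb8*, known for holding myeloid precursors immature and for its role in microglia, had 101, 93 and 79 counts in WT and 200, 203 and 189 in the knockout (log2 1.04, adjusted p = 6.85e-05). *Hoxb2*, a hindbrain gene, had 74, 66 and 44 counts in WT and 121, 134 and 139 in the knockout (log2 1.02, adjusted p = 0.00104). *Hoxb6*, a gene of the lateral mesoderm, had 90, 90 and 79 counts in WT and 194, 157 and 187 in the knockout (log2 0.98, adjusted p = 0.000177). In all of these the genotypes stood well apart. *Hoxb7* had 113, 111 and 87 counts in WT and 199, 220 and 164 in the knockout (log2 0.83, adjusted p = 0.000954). *Hoxb4*, which can expand blood stem cells, had 91, 85 and 86 counts in WT and 150, 164 and 149 in the knockout (log2 0.74, adjusted p = 0.00037).

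*Hoxb9*, a gene of the thoracic skeleton next to *Hoxb8*, was not called, though the difference between genes was not tested. It had 771, 860 and 868 counts in WT and 1098, 1058 and 869 in the knockout, with the lowest knockout library 1 count above the highest WT library before scaling and overlap after it (log2 0.20, 95% interval 0.00 to 0.40, adjusted p = 0.0833). Without KO replicate 3 its change was log2 0.29 (edgeR adjusted p = 0.00438), still under the 1.5-fold limit. Per kilobase of transcript it was the highest *Hox* gene in WT at 18.6 ± 1.04 CPM per kb (SD, n = 3), and in the knockout it stood at 21.3 ± 2.60. It gave 53.1% to 60.1% of the cluster's counts in WT and 40.4% to 44.6% in the knockout. The cluster sum rose from 83.4 to 127 CPM, and its genes 1 to 8 made up most of that difference, from 35.4 to 72.4 CPM. The ratio of *Hoxb5* to *Hoxb9* counts was 0.0415, 0.0256 and 0.0426 in WT and 0.0893, 0.0936 and 0.099 in the knockout. *Hoxb13*, a gene of the tail and prostate, was too low to test, with 5, 4 and 3 counts in WT and 1, 2 and 0 in the knockout.

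In cluster C all 4 genes numbered 1 to 8 were called higher. *Hoxc6*, a marker of the thoracic level, had 328, 372 and 323 counts in WT and 917, 945 and 768 in the knockout, 2.44-fold higher (log2 1.28 ± 0.09, SE, adjusted p = 4.68e-06). With 12.4 ± 0.894 CPM per kb in WT and 30.1 ± 3.17 in the knockout (SD, n = 3), it stood below *Hoxb9* per kilobase in WT and above it in the knockout. *Hoxc5* had 76, 101 and 74 counts in WT and 160, 171 and 148 in the knockout (log2 0.85, adjusted p = 0.000656). *Hoxc4*, like *Hoxc5* a gene of the neck region, had 92, 104 and 81 counts in WT and 162, 175 and 156 in the knockout (log2 0.75, adjusted p = 0.000622). Both rose by less than *Hoxc6* but with no overlap. *Hoxc8*, which patterns ribs and the motor neurons of the forelimb, had 135, 174 and 152 counts in WT and 290, 274 and 212 in the knockout (log2 0.67, adjusted p = 0.00241). Without KO replicate 1 this change was log2 0.57 and was no longer called.

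The higher-numbered genes of cluster C went both ways. *Hoxc9*, a gene of thoracic motor neurons, had 61, 73 and 64 counts in WT and 81, 105 and 91 in the knockout, a change under the 1.5-fold limit (log2 0.41, adjusted p = 0.0419). *Hoxc10*, a gene of the hindlimb and lumbar cord, had 198, 205 and 178 counts in WT and 140, 155 and 167 in the knockout (log2 -0.41 ± 0.11, SE, adjusted p = 0.0083), also under the limit. The ratio of *Hoxc6* to *Hoxc10* counts was 1.66, 1.81 and 1.81 in WT and 6.55, 6.1 and 4.6 in the knockout. The remaining genes were near the detection limit. *Hoxc11* had 13, 17 and 13 counts in WT and 11, 12 and 16 in the knockout (log2 -0.22, adjusted p = 0.568). *Hoxc13*, a regulator of hair keratins, had 11, 7 and 7 counts in WT and 15, 14 and 19 in the knockout (log2 0.85 ± 0.34, SE, adjusted p = 0.0555). The *Hoxc13* value lay close to the threshold, and it passed under 2 other scalings, with unadjusted p-values and without WT replicate 1. *Hoxc12* had 6, 5 and 7 counts in WT and 4, 4 and 3 in the knockout and was not tested.

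Cluster D stood apart from the others by its values, although the difference between clusters was not tested. Of its 3 tested genes numbered 1 to 8, only *Hoxd3* was called. *Hoxd3*, which shapes the vertebrae under the skull, had 14, 32 and 24 counts in WT and 34, 46 and 45 in the knockout (log2 0.76 ± 0.29, SE, adjusted p = 0.0449). The WT libraries of this gene differed widely among themselves, and the call was lost in 6 alternatives, including those that left out WT replicate 1 (log2 0.50, adjusted p = 0.151) and WT replicate 3, KO replicate 2 or KO replicate 3 (adjusted p = 0.105, 0.0606 and 0.0976). *Hoxd4* had 60, 63 and 61 counts in WT and 79, 80 and 76 in the knockout, a small difference without overlap (log2 0.27, 95% interval -0.03 to 0.58, adjusted p = 0.111). *Hoxd8* had 240, 234 and 265 counts in WT and 262, 293 and 252 in the knockout (log2 0.05, 95% interval -0.15 to 0.25, adjusted p = 0.658). That interval ends below the 1.5-fold limit. Its paralogues *Hoxb8* and *Hoxc8* had fitted log2 changes of 1.04 and 0.67, though the difference between genes was not tested. The ratio of *Hoxb8* to *Hoxd8* counts was 0.421, 0.397 and 0.298 in WT and 0.763, 0.693 and 0.75 in the knockout, and that of *Hoxc8* to *Hoxd8* was 0.562, 0.744 and 0.574 in WT and 1.11, 0.935 and 0.841 in the knockout. In the paralogues numbered 4 the same held within each library: the count ratios of *Hoxa4*, *Hoxb4* and *Hoxc4* to *Hoxd4* did not overlap between genotypes, with *Hoxc4* to *Hoxd4* at 1.53, 1.65 and 1.33 in WT and 2.05, 2.19 and 2.05 in the knockout.

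*Hoxd13*, the digit gene at the other end of the cluster, had 219, 203 and 211 counts in WT and 180, 162 and 157 in the knockout. All knockout libraries were lower, by less than the 1.5-fold limit (log2 -0.42 ± 0.10, SE, adjusted p = 0.00461). *Hoxd9* had 50, 39 and 53 counts in WT and 57, 73 and 51 in the knockout (log2 0.27, adjusted p = 0.274). *Hoxd10*, a gene of the hindlimb and lumbar motor neurons, had 39, 40 and 40 counts in WT and 50, 61 and 43 in the knockout (log2 0.29, adjusted p = 0.211). *Hoxd11*, the partner of *Hoxa11* in the forearm, had 38, 32 and 35 counts in WT and 43, 40 and 27 in the knockout, with a fitted change near 0 whose sign turned under other settings (log2 -0.01, 95% interval -0.52 to 0.50, adjusted p = 0.969). *Hoxd12* had 9, 2 and 14 counts in WT and 13, 19 and 9 in the knockout, too few for a narrow interval (log2 0.63, -0.58 to 1.84, adjusted p = 0.343). *Hoxd1*, known from pain-sensing neurons, had 1, 0 and 0 counts in WT and 3, 1 and 2 in the knockout and was not tested. The cluster sum was 38.9, 36.7 and 40.2 CPM in WT and 39.6, 41.6 and 36.1 CPM in the knockout, with overlap and a log2 ratio of 0.02, whereas the sums of clusters A, B and C had log2 ratios of 0.59, 0.61 and 0.78.

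Read by paralogue number, every tested gene numbered 2, 3, 5, 6 and 7 was called higher, beside 14.2% of all tested genes. Of these numbers, cluster D held only 3 and cluster C only 5 and 6. The call of *Hoxd3* was lost in 6 alternatives. Among genes numbered 4 and 8, 3 of 4 and 2 of 3 were called, and the exceptions were *Hoxd4* and *Hoxd8*. The median log2 fold change was highest for number 5 (1.55, 3 genes). It was 0.30 for number 9 (4 genes), with all 4 above 0 and none called, and -0.35 for number 10 (3 genes) and -0.18 for number 11 (3 genes).

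The 5 nearest protein-coding genes on each side of each cluster came to 40, of which 31 were tested, 2 were called higher and 1 lower, beside 14.2% and 7.27% of all tested genes. Both higher genes lie beside cluster A, on the side of its low-numbered genes. *Skap2*, an adaptor of immune cell signalling, had 412, 409 and 427 counts in WT and 749, 867 and 860 in the knockout (log2 0.91 ± 0.07, SE, adjusted p = 6.15e-06). *Snx10*, a sorting nexin of endosomes and osteoclasts, had 386, 434 and 411 counts in WT and 651, 746 and 680 in the knockout (log2 0.68 ± 0.07, SE, adjusted p = 3.13e-05). Both are also expressed in macrophages, whose markers rose in the same libraries, and the part of such cells in these values was not tested. *Creb5*, beyond the *Hoxa13* end, fell from 272, 226 and 250 counts to 148, 139 and 129 (log2 -0.92, adjusted p = 8.05e-05). The other 28 tested neighbours ranged from log2 -0.52 (*Cbx5*) to 0.40 (*Calcoco1*), and no neighbour of clusters B, C or D was called. *Evx2*, the homeobox gene next to *Hoxd13*, had 8, 5 and 5 counts in WT and 6, 10 and 7 in the knockout and was not tested.

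**Figure D4:**
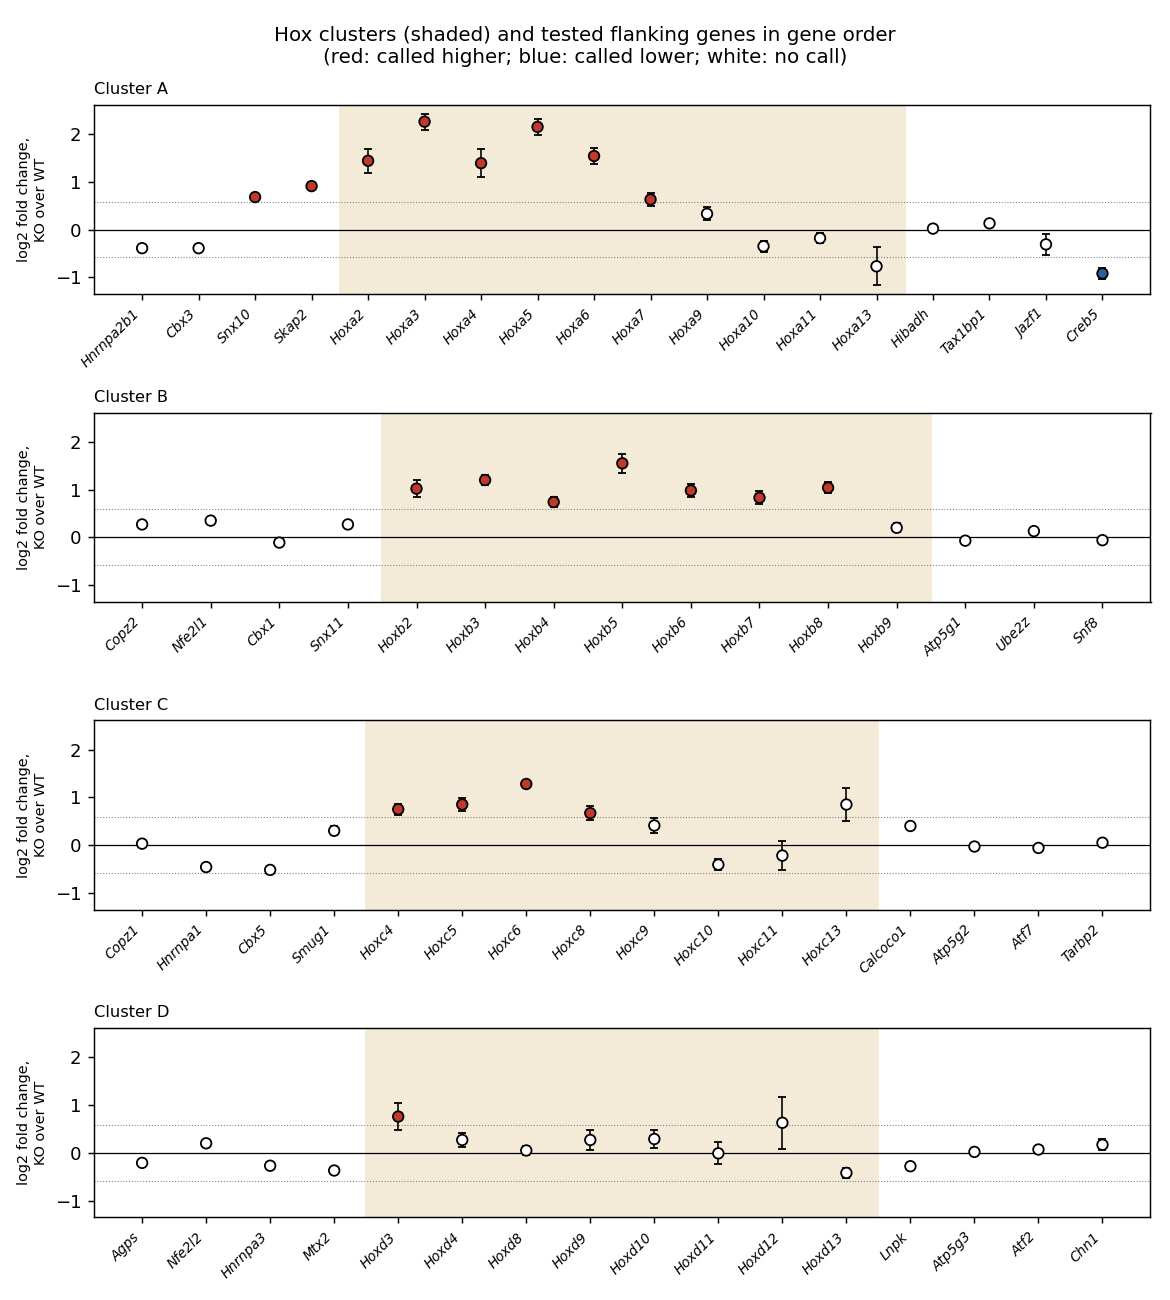
Log2 fold change (y axis, *Aff3ir-ORF2-/-* over WT, bars: standard error of the fit) of the tested *Hox* genes reported here (shaded) and of the tested genes among the 5 nearest on each side, in gene order along each cluster (x axis, not to distance), from the side of the low-numbered genes. Red points were called higher, blue lower and white neither. Outside the shading *Skap2* and *Snx10* are red and *Creb5* is blue, and the other 28 points are white.

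Of 12 genes for cofactors that bind DNA with *Hox* proteins or regulate such partners, 2 were called higher and 0 lower, close to the 14.2% higher of all tested genes, and the median log2 fold change was -0.02 against 0.01. *Pbx2* had 285, 311 and 325 counts in WT and 478, 484 and 511 in the knockout (log2 0.60, adjusted p = 7.97e-05), and *Pbxip1*, a Pbx-binding protein that restrains these complexes, was also higher (log2 0.60, adjusted p = 9.02e-05). Of 5 *Cdx* and *Evx* genes, upstream of *Hox* genes in the embryo or linked to the clusters, 2 were analysed here, and 0 had enough reads to be tested.

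Of 34 Polycomb genes, 3 were called higher and 1 lower, smaller shares than the 14.2% and 7.27% of all tested genes. *Ezh2*, the main H3K27 methyltransferase of dividing cells, fell from 994, 1049 and 1014 counts to 676, 506 and 657 (log2 -0.81 ± 0.10, SE, adjusted p = 0.000283). Its paralogue *Ezh1*, typical of non-dividing cells, had 197, 226 and 206 counts in WT and 366, 400 and 380 in the knockout (log2 0.79 ± 0.08, SE, adjusted p = 2.72e-05). *Cbx8* (log2 0.85, adjusted p = 0.00319) and *Cbx7* (log2 0.67, adjusted p = 0.0436), which read the H3K27 mark, were higher as well. The methyltransferase genes thus moved in opposite directions, each with no overlap between genotypes. Of 25 Trithorax and MLL genes, 0 were called higher and 1 lower, beside the same 14.2% and 7.27%. The lower gene was *Paxip1*, from 1046, 1163 and 1154 counts to 656, 634 and 707 (log2 -0.83, adjusted p = 6.9e-06).

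Of 30 tested limb and trunk genes, which mark position in the embryo, 10 were called higher and 2 lower, beside 14.2% and 7.27% of all tested genes, so that the lower calls were at the background. *Fgf10*, the mesenchymal growth factor that starts limb buds and lung buds, had 120, 89 and 133 counts in WT and 644, 578 and 673 in the knockout (log2 2.39 ± 0.13, SE, adjusted p = 2.02e-06). *Grem1*, a BMP antagonist of limb mesenchyme, had 4348, 4549 and 4481 counts in WT and 10218, 10498 and 10712 in the knockout (log2 1.15, adjusted p = 1.8e-07). *Pax1*, a gene of the sclerotome and shoulder girdle, was low in WT with 11, 7 and 10 counts and had 67, 60 and 82 in the knockout (log2 2.81, adjusted p = 1.87e-05). It had enough reads to be tested only with its knockout counts, so the count of 10 higher genes is a description. The Hedgehog receptor *Ptch1* was higher too (log2 0.73, adjusted p = 7.51e-05), while *Gli3*, which patterns the limb plate and restrains posterior genes there (log2 -0.74, adjusted p = 1.82e-05), and *Emx2*, a gene of the shoulder blade and urogenital tract (log2 -0.89, adjusted p = 2.94e-05), fell.

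Of 12 tested genes of cranial tissue, some of which forms free of *Hox* expression, 6 were called higher and 0 lower, beside the same 14.2% and 7.27%. Some of the higher genes, *Alx1* among them, had enough reads to be tested only through the knockout, so the count of 6 is a description. *Foxd1*, of facial mesenchyme and kidney stroma, had 10, 16 and 17 counts in WT and 87, 81 and 125 in the knockout (log2 2.68, adjusted p = 2.97e-05). *Alx1*, of the frontonasal skeleton, had 4, 3 and 2 counts in WT and 21, 24 and 16 in the knockout (log2 2.63, adjusted p = 0.000426). The higher members thus included genes of the head as well as of the trunk. *Sox10* had 7, 12 and 16 counts in WT and 24, 18 and 41 in the knockout (log2 1.16, adjusted p = 0.0322). *Barx1* had 10, 7 and 4 counts in WT and 12, 14 and 36 in the knockout (log2 1.47, adjusted p = 0.0415). Both were low genes, highest in KO replicate 3. A difference in the embryo parts or stages that the cultures came from and an effect of the genotype on these genes cannot be told apart in this design.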

How the data were processed

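RNA of 6 MEF libraries, 3 WT and 3 *Aff3ir-ORF2-/-*, was sequenced paired-end on a DNBSEQ instrument after read filtering with SOAPnuke. The authors deposited estimated counts per gene, not normalized, which need not be whole (10.6% to 11.3% of values per library were not). The aligner and counter are not given in the sources used here, and the submitters' processing notes name the genome build mm8. No genome coordinates were taken from the deposited table. Counts were rounded to whole numbers.

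All 17092 genes entered 1 fit: edgeR 4.0.16 (R 4.3.3) with TMM scaling (factors 0.989 to 1.02), filterByExpr (minimum count 10, minimum total 15), a robust quasi-likelihood fit on genotype, the quasi-likelihood F-test and Benjamini-Hochberg adjustment over 13075 tested genes. A gene was called at an adjusted p under 0.05 and at least 1.5-fold, the fold limit of the study. The script was tested on simulated counts. CPM were TMM-scaled, and levels per kilobase used the longest protein-coding GENCODE M21 transcript. Gene order and overlaps came from RefSeq, matched by gene ID for all 38 *Hox* genes, and no antisense or strand setting of the counting was known.

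Pairs of WT libraries differed little beyond counting noise (chi-square per degree of freedom 1.38 to 1.71, knockout pairs 5.56 to 18.9), and none were merged. The text names the *Hox* genes, and from each other list up to 6 called genes by adjusted p and up to 4 by mean count. A few genes that this rule would name are not reported here, though the counts, medians and sums include them. The members and lists were chosen with earlier results of these data known. Alternatives were other scalings, filters, tests (DESeq2 1.42.0, limma 3.58.1 voom), prior counts and thresholds, a replicate block and leaving out each library. A fit without robust estimation, counts by gene number and summed overlapping loci were added after seeing the data.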

Additional observations from a re-analysis of the deposited data

How the results depend on the processing

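The 18 *Hox* genes called higher and 0 called lower were 16 to 18 and 0 when 1 library was left out. Of the comparison values, 299 stayed within 1.5 times the reported count (or, for sums, within 1 SD) and 25 did not. Of the gene values, 574 kept their direction and side of the threshold, 8 lost a call, 3 gained one and 6 turned sign. At 2-fold, 1096 of all genes were higher and 317 lower, with 10 *Hox* genes higher, all 10 numbered 1 to 8, and 4 in cluster B, 1 in C and 0 in D. With the adjusted p alone, 3831 of all genes were higher and 3591 lower, with 3 *Hox* genes lower (1 each in clusters A, C and D, all 3 numbered 9 to 13) and 1 gene numbered 9 to 13 higher. With DESeq2's Wald test and with voom, 0 genes of cluster D were higher, and 0 to 1 when 1 library was left out. Genes 9 to 13 gave 1 higher call (*Hoxc13*) with upper quartile scaling, total counts or unadjusted p, and 0 to 1 when 1 library was left out. The *Hoxd11* change turned to log2 0.03 with upper quartile scaling, 0.02 with total counts and 0.00099 with at least 10 counts in every library, and ranged from -0.15 to 0.16 over all alternatives, left-out libraries included. That of *Hoxd8* ranged from -0.01 to 0.10. The causes were not tested. No scaling moved the median of all genes above log2 0.043. Same-numbered libraries shared little (correlations of 0.0386, 0.0424 and 0.0145 after removing the group means). The WT libraries differed little beyond counting noise, so these correlations cannot show whether the numbers pair the libraries. With the replicate block, 18 *Hox* genes were higher and 0 lower, and 1854 of all genes were higher and 954 lower. Counts under about 20 leave wide intervals, as for *Hoxa13*, *Hoxc11*, *Hoxc13* and *Hoxd12*, and *Hoxb13*, *Hoxc12* and *Hoxd1* had too few counts to be tested.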
